A study of Mus musculus with 4 samples.

Results

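The 8 genes described here are the matrix metalloproteinases Mmp8, Mmp9, Mmp12, Mmp13, Mmp14 and Mmp19 and the metalloproteinase inhibitors Timp1 and Timp2. They were taken by gene symbol from the 32285 genes of the count tables, and all 8 were found. Single-cell RNA was profiled for 4 mouse libraries, in a study on glycome targeting and checkpoint blockade in ovarian tumours, with 1 library for each of ctrl, 2DG (2-deoxy-D-glucose, a glucose analogue), aPDL1 and 2DG_aPDL1, called the combination below. Per the labels the tissue was lymph node and the libraries were made with a droplet kit that captures polyadenylated RNA at its 3' end. The design text of the series speaks of both young and aged animals, and the labels used here do not say which age any library is. They give no strain, genotype, dose or time, and do not say whether animals were pooled or what the ctrl animals received. With 1 library per group no difference has a replicate check, no test was made, and the intervals below (95%) cover counting error only.

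Matrix metalloproteinases are zinc-dependent enzymes that cut collagens, elastin and other proteins of the extracellular matrix, and also release or trim cytokines and growth factors. They are made as inactive precursors whose propeptide must be removed, and they are held in check by the TIMP proteins, which block the active site. Neutrophils store some of them in granules, while monocytes and macrophages mostly make them on demand.

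The libraries held 61859753 to 73885214 UMIs (unique molecular identifiers, each standing for 1 captured RNA molecule) and 8701 to 9948 cell barcodes. Each pair of libraries shared 22 to 30 barcodes. Cells were placed in classes by marker genes that exclude the 8 genes, so a class name means cells like that type. Neutrophils made up 38.4% of analysed cells in ctrl (interval 37.4 to 39.5) and 3.35% to 4.49% in the other 3 libraries. Monocytes and macrophages, taken as 1 class, made up 36.2% to 41.4%, and T cells 4.91% in ctrl and 31.0% to 37.0% elsewhere. A panel of 7 genes of lymph node stroma summed to 2.38 to 6.29 CPM (UMIs of a gene scaled to a fixed total of UMIs) in the whole libraries. Of its defining genes, Ccl21a was at 0 in 3 libraries and Madcam1 in 2, while all 7 were detected under 2DG. The stromal markers of the labelled tissue were thus low but not absent, at 174 to 411 UMIs per library. B cells made up 1.05% of analysed cells in ctrl and 1.79% to 5.46% elsewhere. These counts do not establish the sampled tissue, which is given as labelled.

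Mmp13, Mmp12 and Mmp8 lie close together on chromosome 9, within a run of 9 metalloproteinase genes that spans 427072 bases in mouse build GRCm38 (mm10). In this run Mmp13 occupies 7272514 to 7283331, Mmp12 occupies 7344381 to 7369499 and Mmp8 occupies 7558456 to 7568485, all on the plus strand. The stretches of 250 bases before their starts are shown because these 3 neighbours differed in the data. Mmp8 was led by neutrophils and the others by monocytes and macrophages. In monocytes and macrophages, Mmp8 and Mmp12 were lower under 2DG in both pairs and Mmp13 was not. The sequences are from RefSeq, GRCm38.p6. The Mmp8 window ends at 7558428, so the RefSeq start used lies upstream of the Mmp8 start given above. Capitals mark AP-1 letters (TGANTCA), ETS letters (AGGAAG) and TATA letters (TATAAA), each searched on both strands. For Mmp12 the stretch before the more downstream of its RefSeq starts is shown, which lies in an intron of a longer Mmp12 transcript.

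Mmp13, chr9:7272264-7272513, plus strand: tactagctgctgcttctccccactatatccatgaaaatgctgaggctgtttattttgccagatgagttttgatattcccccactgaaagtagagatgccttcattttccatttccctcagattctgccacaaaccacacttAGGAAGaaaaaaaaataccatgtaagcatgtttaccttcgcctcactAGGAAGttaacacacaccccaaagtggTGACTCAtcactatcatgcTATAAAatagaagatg
Mmp12, chr9:7347124-7347373, plus strand: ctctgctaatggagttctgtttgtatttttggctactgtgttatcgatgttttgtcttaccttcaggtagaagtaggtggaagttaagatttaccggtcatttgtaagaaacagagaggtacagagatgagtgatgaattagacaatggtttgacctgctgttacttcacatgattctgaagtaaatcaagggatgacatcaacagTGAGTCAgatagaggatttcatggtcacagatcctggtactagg
Mmp8, chr9:7558179-7558428, plus strand: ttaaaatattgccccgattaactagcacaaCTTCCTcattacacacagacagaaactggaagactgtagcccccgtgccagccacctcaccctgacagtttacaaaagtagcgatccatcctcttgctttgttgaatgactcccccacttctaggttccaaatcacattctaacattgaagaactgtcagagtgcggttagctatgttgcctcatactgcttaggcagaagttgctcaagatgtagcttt

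Mmp13 has the AP-1 letters TGACTCA 35 bases before the start, ETS letters at 109 and 62 bases and TATA letters at 16 bases. Mmp12 has the AP-1 letters TGAGTCA 44 bases before this start. Mmp8 holds ETS letters 220 bases before the start, and neither of the other 2 motifs is in its window. Among 32851 promoter windows of the same length, 6.75% hold the AP-1 letters, 29.5% the ETS letters and 12.4% the TATA letters. The stretch before the more upstream Mmp12 start, which is not shown, holds no AP-1 letters and has ETS letters 87 bases before that start. The windows of Mmp14, Timp1 and Timp2 hold no AP-1 letters either, so the AP-1 letters stood at Mmp13 and at the more downstream Mmp12 start only among the windows searched. A match of letters describes the sequence and is no evidence of binding. RefSeq windows were matched for 6 of the 8 genes, and Mmp9 and Mmp19 had none.

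Of the other genes, Mmp9 lies on chromosome 2 at 164940780 to 164955850, Mmp19 on chromosome 10 at 128790910 to 128800824 and Mmp14 on chromosome 14 at 54431612 to 54445364. Timp1 lies on chromosome X at 20870166 to 20874735, inside Syn1 on the opposite strand. Timp2 lies on chromosome 11 at 118301069 to 118355740 on the minus strand and contains Cep295nl on the same strand. Mmp12 overlaps Mmp1b, and Mmp19 overlaps Gm47093 and Tmem198b, all on the opposite strand. Whether the counting used strand is not stated in these sources, so reads of these overlapping pairs may not be fully parted.

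The 8 genes fell into those led by neutrophils and those led by monocytes and macrophages. Mmp8, Mmp9 and Timp2 had their highest mean level over the 4 libraries in neutrophils, and Mmp12, Mmp13, Mmp14, Mmp19 and Timp1 had theirs in monocytes and macrophages. Of the Mmp9 UMIs in the analysed cells, which leave out filtered barcodes and doublets, neutrophils held 66.9% to 92.3% in each library. Neutrophils held 6991, 484, 632 and 148 Mmp8 UMIs in ctrl, 2DG, aPDL1 and the combination. Monocytes and macrophages held 2159, 231, 486 and 338, so under the combination they held more Mmp8 UMIs than neutrophils. For the 5 genes led by monocytes and macrophages, that class held 71.8% to 98.0% of the UMIs in the analysed cells. Timp2 was the most spread out, with 47.9% to 62.3% of its UMIs in monocytes and macrophages and 1.78% to 43.4% in neutrophils. Under the combination its level was lower in neutrophils (41.6 CPM) than in monocytes and macrophages (51.3 CPM). NK cells carried it at 29.9 to 74.1 CPM.

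**Figure D1:**
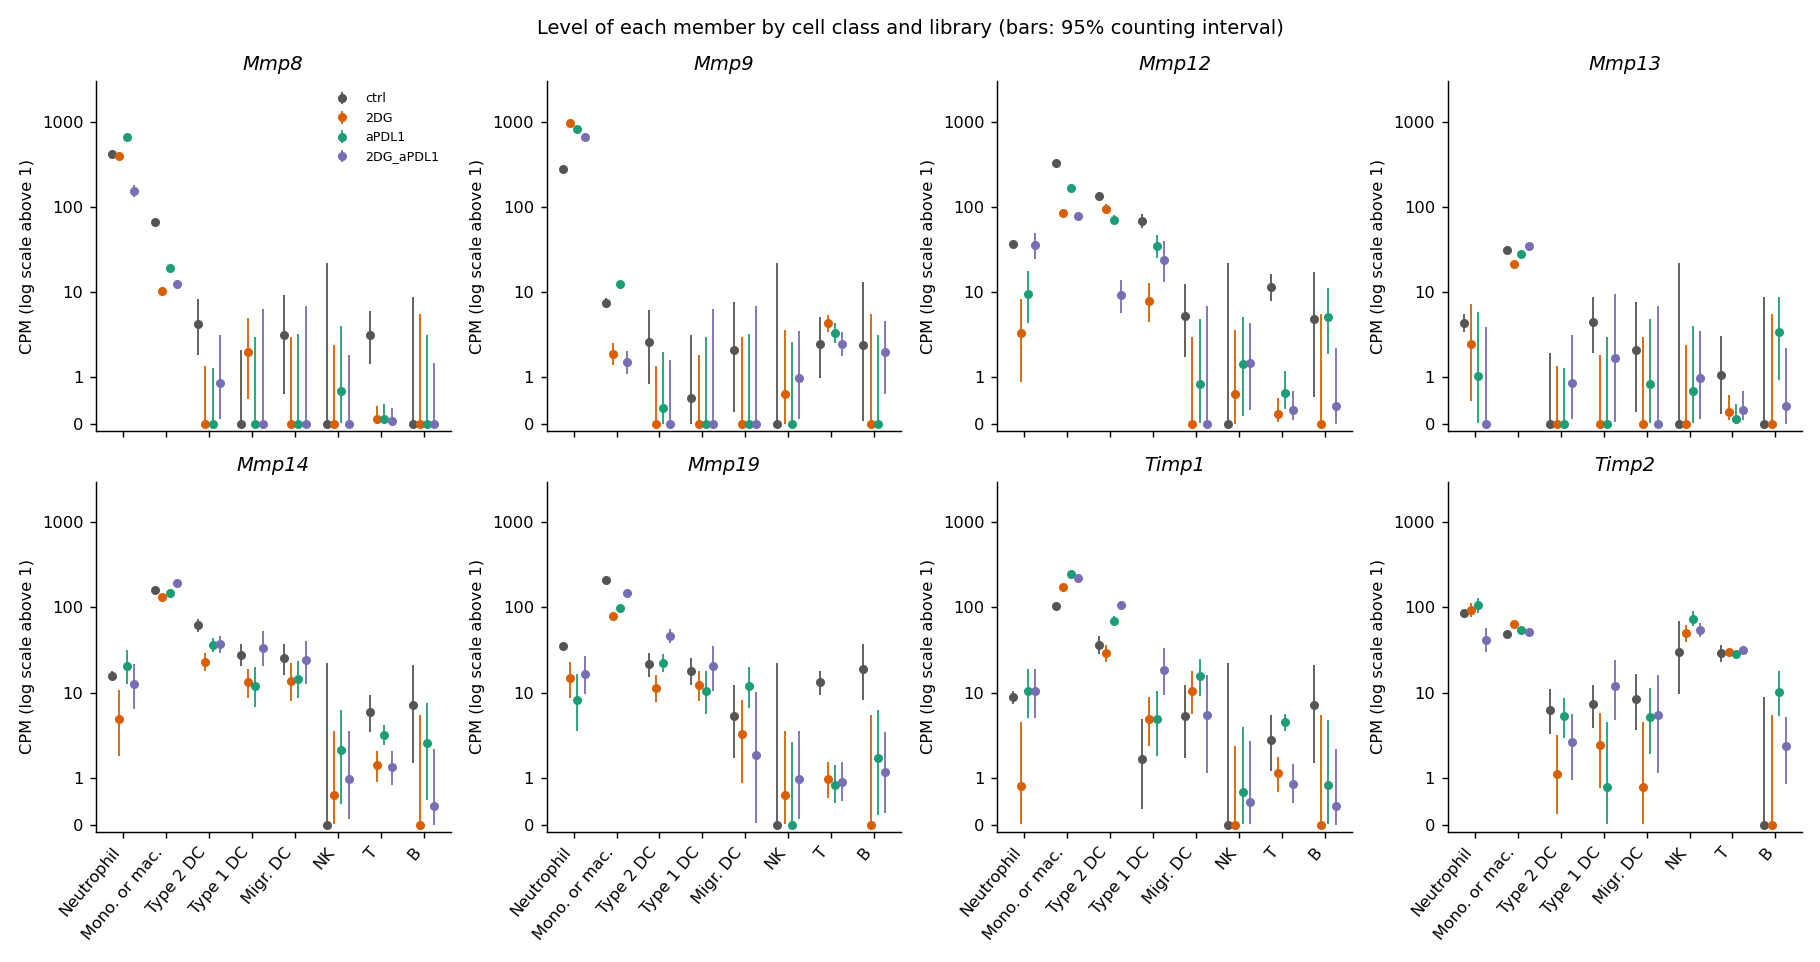
Level of each of the 8 genes (CPM, log scale above 1) in each cell class, with 1 point per library and bars for the 95% counting interval. Mmp8 and Mmp9 stand highest in neutrophils, while Mmp14, Mmp19 and Timp1 stand highest in monocytes and macrophages. So does Mmp12 except under 2DG, where type 2 dendritic cells were at 95.2 CPM and monocytes and macrophages at 84.8.

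Mmp8, the neutrophil collagenase, was at 419 CPM in ctrl neutrophils (410 to 429), 394 under 2DG (359 to 430), 655 under aPDL1 (605 to 708) and 154 under the combination (130 to 181). The combination was thus the low library, and aPDL1 the high one. In the treated libraries, which hold 279 to 332 neutrophils, the 10 neutrophils with most Mmp8 held 51.0% of its UMIs under 2DG, 45.6% under aPDL1 and 75% under the combination. The same share for Mmp9 in these libraries was 20.4%, 25.7% and 23.8%. A single neutrophil held 39 of the 148 Mmp8 UMIs of the combination.

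Mmp9, gelatinase B, cuts denatured collagen and type IV collagen and is stored in neutrophil granules. Its level in neutrophils was 276 CPM in ctrl (269 to 285), 971 under 2DG (916 to 1027), 830 under aPDL1 (773 to 889) and 668 under the combination (618 to 722). All 3 treated libraries lay above ctrl, and their order was 2DG, aPDL1, combination. With each cell thinned to 1500 UMIs, an Mmp9 UMI was found in 24.1% of ctrl neutrophils (22.6 to 25.7), 60.3% under 2DG (54.8 to 65.7), 46.0% under aPDL1 (39.8 to 52.2) and 49.5% under the combination (43.4 to 55.5). Before thinning the shares were 41.4%, 73.2%, 54.5% and 62.5% in that order.

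Thinned Mmp8 shares gave another picture than the Mmp8 level. They were 23.5% in ctrl neutrophils (22.0 to 25.03), 13.8% under 2DG (10.3 to 18.1), 17.2% under aPDL1 (12.9 to 22.4) and 8.30% under the combination (5.34 to 12.2), and 36.7%, 18.1%, 19% and 12.4% before thinning. Ctrl thus had the largest share of Mmp8-positive neutrophils although not the highest level. Free RNA in droplets gives UMIs in cells that do not make a gene, and the thinned shares of T cells were at most 0.499% for Mmp8 (interval up to 1.79) and at most 0.543% for Mmp9. Regulatory T cells had Mmp9 at 3.68 to 14.3 CPM, against 0.270 to 1.14 CPM in CD8 T cells. The part of free RNA in the T cell share of Mmp9 was not tested. Median depths were 2638 to 3832 UMIs in neutrophils and 5540.5 to 6118 in T cells.

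Timp2 blocks metalloproteinases and, with Mmp14, also serves in the activation of the precursor of Mmp2. In neutrophils it was at 86.6 CPM in ctrl (82.2 to 91.2), 93.6 under 2DG (77.2 to 112), 106 under aPDL1 (86.1 to 128) and 41.6 under the combination (29.7 to 56.6). The counting intervals of the first 3 libraries overlapped, and the combination lay below them. Thinned shares of neutrophils with Timp2 were 11.6%, 8.62%, 10.3% and 6.50%, against 4.74%, 4.53%, 3.76% and 4.78% of T cells. T cells hold types that carry Timp2, as given further on, and in CD8 T cells the thinned share was 1.18% to 1.75%. The interval of the neutrophil share in the combination (3.90 to 10.1) lay above the CD8 T cell shares.

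The other 5 genes were low in neutrophils. Mmp12 was at 36.7, 3.25, 9.32 and 35.3 CPM in the order ctrl, 2DG, aPDL1 and combination, but a single cell held 257 of its 612 UMIs in ctrl and 28 of its 34 under the combination. Mmp13 had 72 UMIs in ctrl and 3, 1 and 0 elsewhere, where a count of 0 allows up to 3.12 CPM (3 counts). Mmp14, Mmp19 and Timp1 lay between 0.814 and 35.2 CPM.

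Monocytes and macrophages gave the larger counts. Mmp12, the macrophage elastase, was at 327 CPM in ctrl (321 to 333), 84.8 under 2DG (81.1 to 88.7), 168 under aPDL1 (163 to 173) and 78.3 under the combination (75.0 to 81.6). Both libraries under 2DG lay below both without it. The thinned share of cells with Mmp12 had the same order, at 12.8% in ctrl (11.6 to 14.1), 4.28% under 2DG (3.54 to 5.13), 7.34% under aPDL1 (6.48 to 8.27) and 4.0% under the combination (3.37 to 4.70). Unthinned shares were 22.1%, 8.45%, 12.2% and 7.14%, at median depths of 10611, 7773, 6906 and 7084 UMIs. In T cells Mmp12 was at 11.5 CPM in ctrl and 0.216 to 0.664 CPM elsewhere, with thinned shares of 1.5% in ctrl and 0.0368% to 0.116% elsewhere.

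Mmp13 is collagenase 3. Its level in monocytes and macrophages was 30.9 CPM in ctrl, 21.1 under 2DG, 28.2 under aPDL1 and 34.3 under the combination. These values span less than those of Mmp12, under 2DG lowest. Few cells carried it, with thinned shares of 3.02%, 1.57%, 2.02% and 2.53%. The 10 cells with most held 22.6% to 41.2% of its UMIs.

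Mmp14 is anchored in the cell membrane, cuts collagen at the cell surface and activates the precursor of Mmp2. It was at 160 CPM in ctrl monocytes and macrophages (156 to 164), 132 under 2DG (128 to 137), 148 under aPDL1 (144 to 153) and 194 under the combination (189 to 199). The combination was highest and 2DG lowest. Thinned shares were 18.8%, 15.5%, 16.6% and 19.98% in that order. T cells had 0.249% to 0.388%.

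Mmp19, a secreted family member that cuts basement membrane proteins, was at 212 CPM in ctrl (207 to 217), 80.3 under 2DG (76.7 to 84.1), 98.5 under aPDL1 (94.7 to 102) and 146 under the combination (141 to 150). Ctrl was highest and 2DG lowest. The thinned shares kept this order, at 19.4%, 10.1%, 11.5% and 14.7%. Single treatments thus lay below both ctrl and the combination.

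Timp1 is an inducible inhibitor that also binds the Mmp9 precursor. In monocytes and macrophages it was at 105 CPM in ctrl (102 to 109), 172 under 2DG (166 to 177), 247 under aPDL1 (241 to 254) and 220 under the combination (214 to 225). All 3 treated libraries lay above ctrl, whereas for Mmp12 all 3 lay below it. Among the treated libraries aPDL1 was the highest for both genes. Thinned shares were 8.13% in ctrl (7.16 to 9.18), 11.5% under 2DG (10.3 to 12.8), 12.6% under aPDL1 (11.5 to 13.8) and 13.6% under the combination (12.5 to 14.8). Timp2 in the same class was at 48.9, 63.4, 54.0 and 51.3 CPM, with thinned shares of 5.15% to 5.81%.

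The granule enzymes were lower than in neutrophils when monocytes and macrophages were taken as a class. The ctrl library had Mmp8 at 66.2 CPM there, and it stood at 10.1, 18.97 and 12.3 CPM under 2DG, aPDL1 and the combination. Its thinned share was 6.83% of the class in ctrl and 1.57% to 2.79% elsewhere. The panel of 9 neutrophil markers, all of them detected, summed in the same cells to 590.0 CPM in ctrl and 346.8 to 396.6 CPM elsewhere. In T cells that panel was at 265.4 CPM in ctrl and 128.2 to 179.1 CPM elsewhere, and Mmp8 at 3.13 CPM in ctrl. Mmp8 was not even over the class. Classical monocytes, set by markers, had it at 24.2 to 97.6 CPM. Gated cells of a cluster led by Lyz2, Stxbp6 and Ly6c2 had it at 201, 71.1, 65.3 and 46.4 CPM in ctrl, 2DG, aPDL1 and the combination. Mmp9 in that cluster was at 2.54 CPM in ctrl and 0 elsewhere. The part of neutrophil RNA or of joined cells in the Mmp8 level of monocytes and macrophages was not tested.

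Mmp9 in monocytes and macrophages was at 7.39 CPM in ctrl, 1.89 under 2DG, 12.3 under aPDL1 and 1.5 under the combination. A single cell held 202 of the 314 UMIs of the aPDL1 library. Without the cell that held most UMIs in each library, the levels were 6.75, 1.71, 4.37 and 1.10 CPM.

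Each treatment was compared in the pairs the design gives, with log2 ratios of CPM (counts plus 0.5). A gene met the count minimum where the higher library had at least 50 UMIs, and it counted as higher or lower where it then differed by at least 1.5-fold. 2DG was compared with ctrl and, on top of aPDL1, the combination with aPDL1 alone. aPDL1 was compared with ctrl and, on top of 2DG, the combination with 2DG alone. A ratio names the numerator first, as in 2DG over ctrl. All 4 use the same 4 libraries and are not independent.

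In monocytes and macrophages, 2DG over ctrl gave 4 of 8 genes lower (9.32% of all genes that met the minimum) and 1 of 8 higher (12.6%). The combination over aPDL1 gave 3 of 8 lower (8.04%) and 0 of 8 higher (4.44%). Mmp8, Mmp9 and Mmp12 were lower in both pairs, which is 3 of 8 against 1.93% of all genes. Median log2 ratios of the 8 genes were -0.98 and -0.12, beside 0.11 and -0.10 over all genes.

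Mmp12 was 3.86-fold lower under 2DG than in ctrl (log2 ratio -1.95, interval -2.02 to -1.88) and 2.15-fold lower under the combination than under aPDL1 (-1.10, -1.18 to -1.03). Of the 3 genes lower in both pairs, it had the largest counts. Mmp8 had log2 ratios of -2.70 (-2.91 to -2.51) and -0.62 (-0.82 to -0.42). The latter lies near the 1.5-fold limit, and Mmp8 left the set of genes lower in both pairs under 6 of the alternatives run. Mmp9 had ratios of -1.96 (-2.47 to -1.5) and -3.02 (-3.54 to -2.56), and -1.98 for the second pair without the top cell of each library.

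Mmp19 was lower under 2DG than in ctrl (-1.40, -1.48 to -1.33) but its ratio was 0.57 (0.49 to 0.64) under the combination over aPDL1. Timp1 was the gene that was higher under 2DG than in ctrl, by 1.63-fold (0.71, 0.64 to 0.77), while its other ratio was -0.17. The former came to 0.58 with TMM scaling and 0.54 as the mean of per-cell CPM, just short of 1.5-fold. For these genes the 2DG pairs therefore had opposite signs. Mmp13, Mmp14 and Timp2 stayed within 1.5-fold in both pairs, with ratios from -0.55 to 0.39.

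For aPDL1 over ctrl, 2 of 8 genes were higher (14% of all genes) and 3 of 8 lower (9.74%). Timp1 was 2.35-fold higher (1.23, 1.17 to 1.29). Mmp9 was the other higher gene (0.73, 0.48 to 0.98), and its ratio turned to -0.62 without the top cell of each library. Mmp8 (-1.80), Mmp12 (-0.96) and Mmp19 (-1.11) were lower. With the states weighted equally the Mmp12 ratio came to -0.29, below the limit. The median of the 8 genes was -0.12 beside 0.09 over all genes.

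The combination over 2DG gave 2 of 7 genes higher (4.37%) and 0 of 7 lower (7.25%), as Mmp9 did not meet the count minimum. These were Mmp19, by 1.82-fold (0.86, 0.78 to 0.94), and Mmp13, by 1.63-fold (0.70, 0.54 to 0.86). The Mmp13 ratio was 0.56 as the mean of per-cell CPM. Timp1 had 0.36 (0.30 to 0.41) here. No gene of the 8 was higher or lower in both aPDL1 pairs, beside 2.95% of all genes.

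In neutrophils, 2DG over ctrl gave 1 of 8 genes higher (16.6%) and 5 of 8 lower (27.4%). The higher gene was Mmp9, by 3.51-fold (1.81, 1.72 to 1.90). The lower genes were Mmp12, Mmp13, Mmp14, Mmp19 and Timp1, with 1 to 18 UMIs in the 2DG library, and the interval for Mmp13 was -3.13 to 0.78. These 5 genes met the count minimum through the ctrl library alone, so their number is no support for a shared direction. aPDL1 over ctrl gave 2 of 6 higher (11.9%), namely Mmp9 (1.59, 1.48 to 1.69) and Mmp8 (0.64, 0.52 to 0.76), and 3 of 6 lower (26.8%), namely Mmp12, Mmp13 and Mmp19 with 1 to 9 UMIs. Of the 3223 ctrl neutrophils, 117 lay in the cluster of Spp1 and Arg1 macrophages, against 0 to 2 in the treated libraries. They held 416 of the 612 Mmp12 UMIs of ctrl neutrophils, 49 of 72 for Mmp13, 141 of 264 for Mmp14, 158 of 587 for Mmp19 and 73 of 146 for Timp1. Without these cells 2DG over ctrl came to 0.94 for Mmp13 and -0.56 for Mmp14, so that neither was lower by 1.5-fold, and to -1.76 for Mmp12, -0.85 for Mmp19 and -1.93 for Timp1. aPDL1 over ctrl then came to -0.30 for Mmp12 and 0.099 for Mmp13. In the combination over aPDL1, 2 of 3 genes were lower (8.1%) and 0 of 3 higher (14.3%). In the combination over 2DG, 2 of 3 were lower (6.87%) and 0 of 3 higher (11.4%).

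The lower genes of those pairs were Mmp8 and Timp2. Against aPDL1 the combination had log2 ratios of -2.09 for Mmp8 (-2.36 to -1.83) and -1.33 for Timp2 (-1.91 to -0.80). Against 2DG they were -1.35 (-1.63 to -1.09) and -1.16 (-1.73 to -0.64). Mmp9 stayed within 1.5-fold in both, at -0.31 and -0.54. When 2 times as many doublets were taken out, the combination over 2DG came to 1.02 for Mmp8 and -0.42 for Timp2. Without the Ngp, Camp and Ltf cluster described below, Timp2 against aPDL1 came to -0.50. No gene moved the same way by 1.5-fold in both 2DG pairs, beside 5.34% of all genes, or in both aPDL1 pairs, beside 2.19%.

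**Figure D2:**
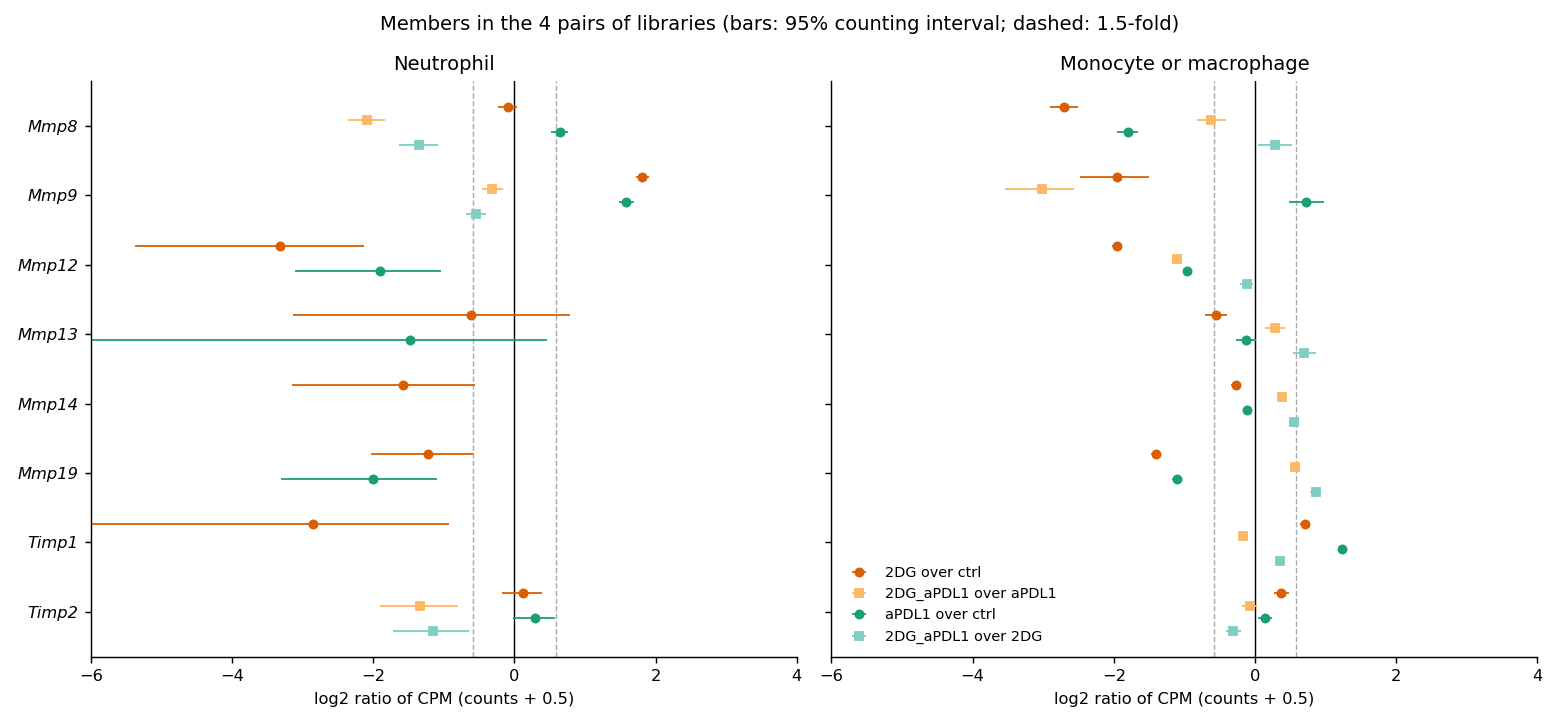
Log2 ratio of CPM for each of the 8 genes in the 4 pairs of libraries, for neutrophils and for monocytes and macrophages, with bars for the 95% counting interval and dashed lines at 1.5-fold. Mmp12 lies to the left in both 2DG pairs of monocytes and macrophages, and Mmp9 lies to the right in both single treatments over ctrl in neutrophils.

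The leading cluster of neutrophils differed between ctrl and the treated libraries. A cluster led by G0s2 and Cxcl3 held 71.0% of ctrl neutrophils and 20.2% to 36.2% elsewhere. A cluster led by Hdc and Retnlg held 17.9% in ctrl and 46.2% to 68.1% elsewhere. Another cluster, led by the granule genes Ngp, Camp and Ltf, held 5.03% to 12.5%.

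Mmp9 was higher under 2DG than in ctrl in each of the 3 clusters, at 682 against 237 CPM in the G0s2 cluster, 984 against 601 in the Hdc cluster and 1428 against 332 in the Ngp cluster. With aPDL1 it was at 221, 902 and 1592 CPM, so the G0s2 cluster did not lie above ctrl there. In the combination it was at 615, 956 and 309 CPM, with the Ngp cluster not above ctrl.

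Mmp8 went the other way in the main clusters. In the Hdc cluster it was at 906 CPM in ctrl, 206 under 2DG, 249 under aPDL1 and 58.7 under the combination. In the G0s2 cluster it was at 351, 80.3, 29.5 and 172 CPM. In the Ngp cluster it was at 451, 1248, 1991 and 483 CPM, from 162, 27, 35 and 18 cells. Most Mmp8 UMIs of the single treatments came from that small cluster, 326 of 484 under 2DG and 535 of 632 under aPDL1.

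Without the Ngp cluster, neutrophil Mmp8 was at 417 CPM in ctrl (407 to 428), 163 under 2DG (139 to 191), 139 under aPDL1 (113 to 170) and 79.1 under the combination (60.6 to 101). All 3 treated libraries then lay below ctrl, and the ratio of aPDL1 over ctrl turned from 0.64 to -1.58. TMM scaling, which shifts all neutrophil genes by -0.38 in both single treatments over ctrl, gave 0.27 for Mmp8. Mmp9 without it was at 273, 847, 535 and 750 CPM, still with all 3 treated libraries above ctrl. Timp2 was at 87.6, 71.3, 63.2 and 44.6 CPM.

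**Figure D3:**
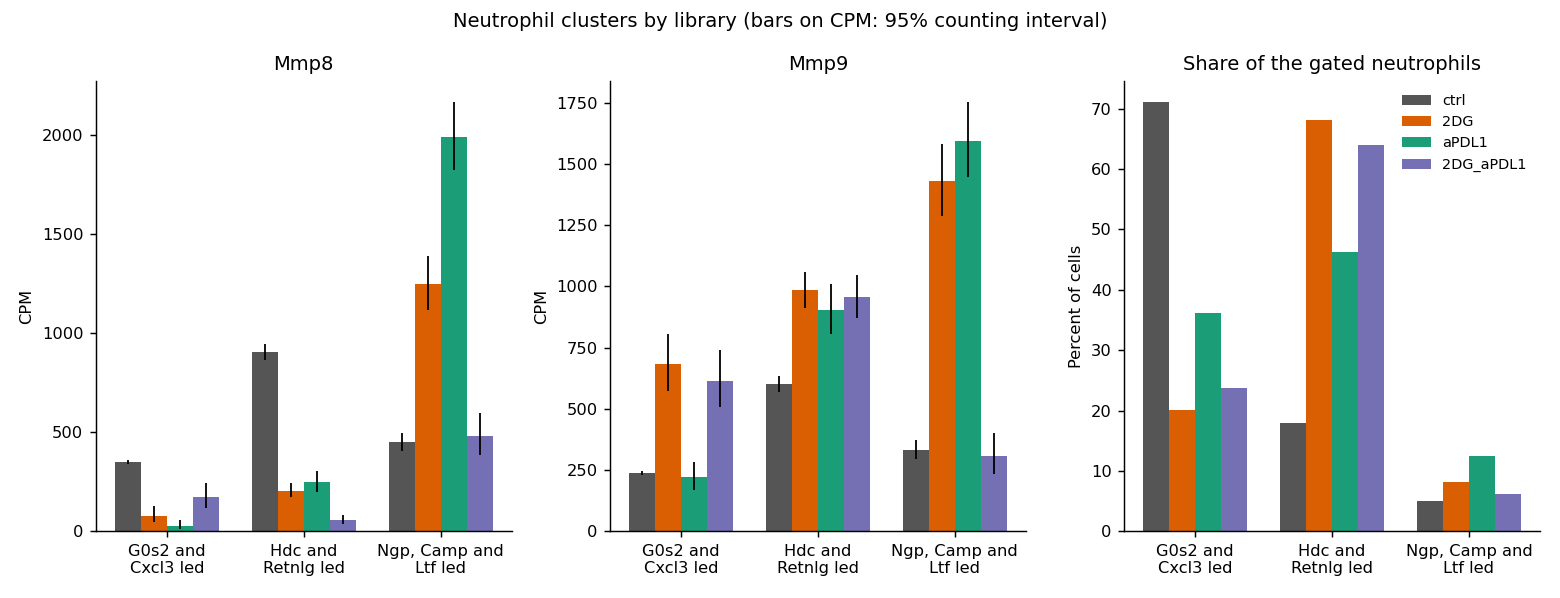
Levels of Mmp8 and Mmp9 (CPM, bars start at 0, with 95% counting intervals) and share of neutrophils in 3 neutrophil clusters, by library. Mmp8 is highest in ctrl in the Hdc cluster and highest under aPDL1 in the Ngp cluster.

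In ctrl neutrophils Mmp8 and Mmp9 were found together. Of 719 thinned cells with an Mmp8 UMI, 291 or 40.5% had Mmp9 (36.9 to 44.2), against 448 of 2342 or 19.1% of those without (17.6 to 20.8). The count of cells for the other libraries is far smaller. Across neutrophil states set by marker genes, Mmp8 in the Retnlg and Il1r2 high state was at 634, 551, 1037 and 282 CPM, and in the Ccl3 and Cxcl3 high state at 182, 6.36, 20.9 and 39.5 CPM.

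Monocytes and macrophages also differed in makeup. The cluster led by Spp1 and Arg1 held 47.3% of the class in ctrl and 4.21% to 11.7% elsewhere, while the cluster led by Cxcl9 held 8.67% in ctrl and 27.2% to 32.0% elsewhere. The levels of the 8 genes were therefore also taken in states set by markers, with Spp1 and Arg1 macrophages, C1q macrophages, classical and non-classical monocytes and a few resident peritoneal macrophages. Spp1 and Arg1 macrophages were 41.6% of the class in ctrl and 10.6% to 17.6% elsewhere, and classical monocytes 19.8% in ctrl and 27.9% to 38.0% elsewhere.

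Among states with at least 30 cells in each library, Spp1 and Arg1 macrophages had the highest mean level over the 4 libraries for Mmp9, Mmp12, Mmp13, Mmp14, Mmp19 and Timp1. C1q macrophages had it for Timp2 and classical monocytes for Mmp8. Non-classical monocytes were the low state, with Mmp8, Mmp12, Mmp13, Mmp19 and Timp1 each at 6.89 CPM or less in every library.

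Mmp12 in Spp1 and Arg1 macrophages was at 517 CPM in ctrl, 205 under 2DG, 496 under aPDL1 and 345 under the combination. In C1q macrophages it was at 328, 102, 192 and 65.3 CPM. Both states thus had less Mmp12 under 2DG in each pair, with log2 ratios of -1.33 and -0.52 in the former and -1.69 and -1.55 in the latter. The Spp1 and Arg1 cluster differed from the state of that name, with Mmp12 at 450, 339, 686 and 805 CPM in its gated monocytes and macrophages. There the combination lay above aPDL1, so the lower level in the second pair depends on how these macrophages are set. Classical monocytes had little, at 60.2, 9.48, 11.4 and 15.3 CPM, and their combination over aPDL1 had the opposite sign (0.42).

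Timp1 in Spp1 and Arg1 macrophages stood at 156 CPM in ctrl against 492, 609 and 508 CPM under 2DG, aPDL1 and the combination. In C1q macrophages it stood at 24.8 CPM in ctrl against 125, 114 and 146 CPM elsewhere. Within these states, as set by markers, the ratios over ctrl were larger than in the class as a whole. The log2 values were 1.66 for 2DG and 1.97 for aPDL1 in the former and 2.33 and 2.20 in the latter. In gated cells of the C1qa and Psd3 cluster Timp1 was at 16.7, 39.3, 36.4 and 22.3 CPM in ctrl, 2DG, aPDL1 and the combination. The Ccl8 and Apoe cluster had it at 150, 53.4, 103 and 188 CPM, with both single treatments below ctrl. The Ccl8 and C1qb cluster had it at 41.4, 256, 277 and 205 CPM, from 28, 357, 205 and 769 cells. The ratios in C1q macrophages thus depend on how these cells are set. Classical monocytes stood at 87.0, 92.8, 149 and 200.5 CPM.

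Mmp13 had the same sign in all 4 pairs within the C1q macrophage state, but not in the class. It was at 17.98 CPM there in ctrl, 35.7 under 2DG, 31.8 under aPDL1 and 58.1 under the combination, with log2 ratios of 0.98, 0.87, 0.82 and 0.70 in the 4 pairs. In Spp1 and Arg1 macrophages it was at 56.8, 35.0, 93.7 and 82.1 CPM. The sign of 2DG over ctrl thus differed between these states, 0.98 against -0.69. The clusters led by C1q genes differed among themselves. The C1qa and Psd3 cluster had Mmp13 at 13.2, 24.9, 26.9 and 15.3 CPM in the same order. The Ccl8 and Apoe cluster had it at 89.1, 44.0, 72.7 and 34.2 CPM, with ctrl highest. The Ccl8 and C1qb cluster had it at 7.76, 56.3, 55.0 and 74.6 CPM, from 28 cells in ctrl.

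Mmp14 in C1q macrophages was at 166, 190, 210 and 304 CPM, and in Spp1 and Arg1 macrophages at 183, 180, 258 and 280 CPM. Both states were highest under the combination. Mmp19 differed by state in ctrl, with 307 CPM in classical monocytes, 251 in Spp1 and Arg1 macrophages and 51.6 in C1q macrophages. In classical monocytes it was at 99.7, 119 and 191 CPM under 2DG, aPDL1 and the combination.

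Timp2 was high in the resident peritoneal macrophages, at 234 CPM in ctrl (178 to 304), 330 under 2DG (257 to 417), 618 under aPDL1 (527 to 719) and 631 under the combination (551 to 719). These values rest on 17, 16, 23 and 27 cells. In C1q macrophages Timp2 was at 161, 136, 132 and 94.8 CPM, and in Spp1 and Arg1 macrophages at 11.9, 19.6, 18.3 and 24.2 CPM.

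**Figure D4:**
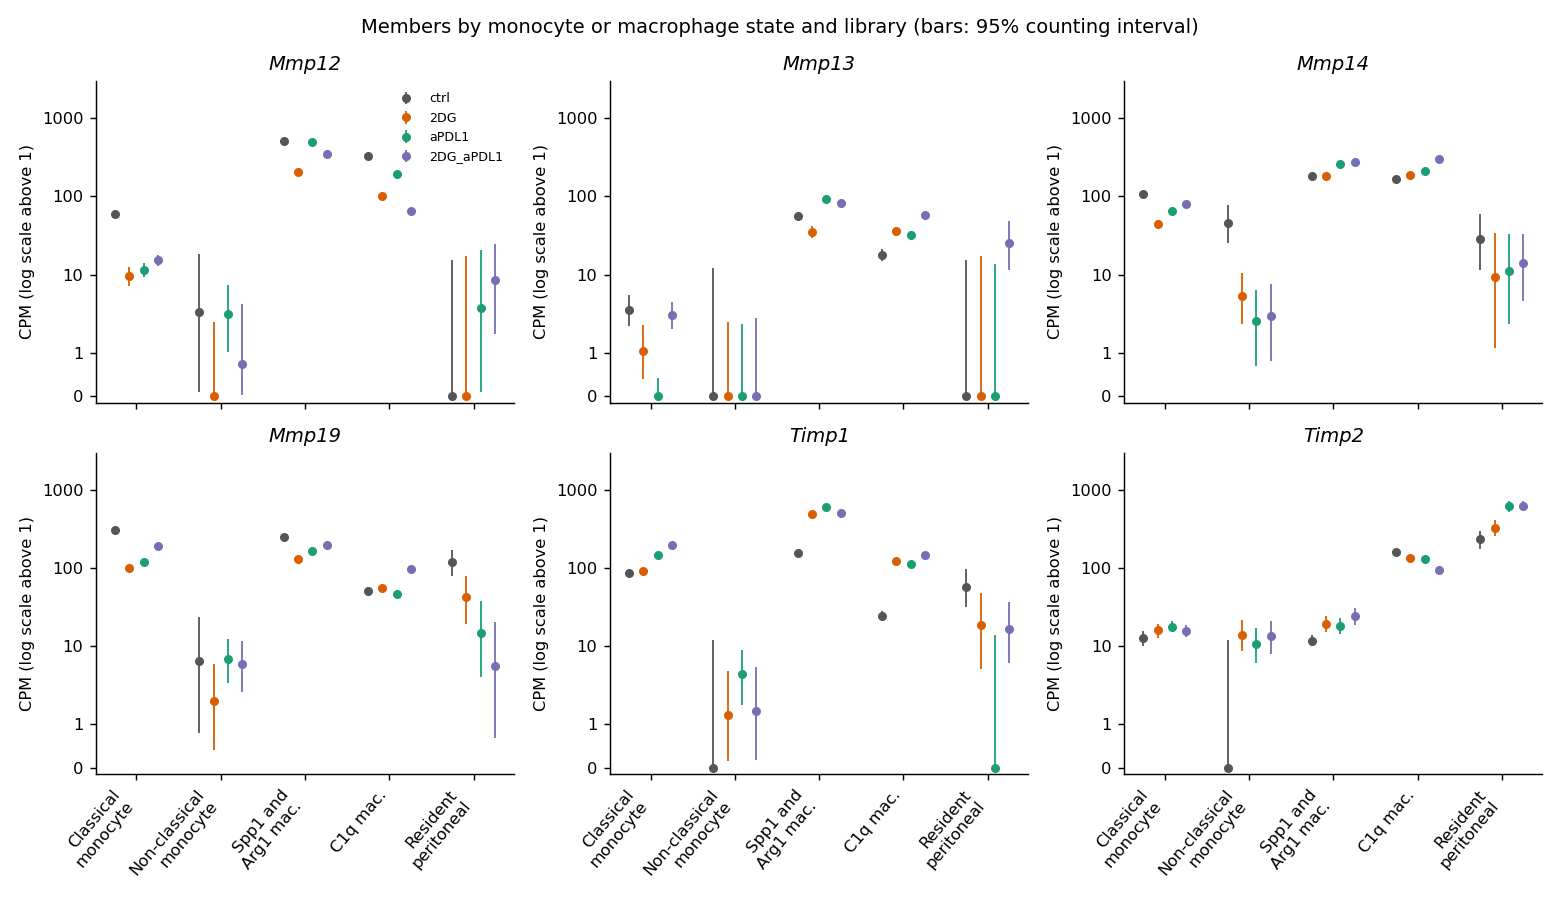
Level of 6 of the genes (CPM, log scale above 1) in 5 monocyte or macrophage states, with 1 point per library and bars for the 95% counting interval. Mmp12 under 2DG lies below ctrl in both macrophage states, and Timp1 in both lies above ctrl in all 3 treated libraries.

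Mmp13 was found more often in the cells with Mmp12 than in those without, although most cells with Mmp12 had no Mmp13 UMI. Of thinned cells with an Mmp12 UMI, 11.8% had Mmp13 in ctrl, 8.93% under 2DG, 15.8% under aPDL1 and 16.5% under the combination. Among cells without Mmp12 the shares were 1.73%, 1.24%, 0.930% and 1.95%. Mmp14 was likewise more common beside Timp1, in 22.4%, 21.5%, 29.9% and 33.6% of the cells with Timp1 and in 18.5%, 14.7%, 14.7% and 17.8% of those without.

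The UMIs of the 6 metalloproteinases per UMI of the 2 inhibitors stood at 5.22 in ctrl monocytes and macrophages, 1.41 under 2DG, 1.57 under aPDL1 and 1.72 under the combination. The metalloproteinase sum was at 804, 331, 474 and 466 CPM, and the inhibitor sum at 154, 235, 301 and 271 CPM. Ctrl had the highest metalloproteinase sum and the lowest inhibitor sum. In neutrophils the same ratio was 8.26 in ctrl, 14.7 under 2DG, 13.1 under aPDL1 and 17.1 under the combination. With cells thinned, 47.7% of ctrl monocytes and macrophages held any of the 6 metalloproteinases, against 28.7% under 2DG, 32.9% under aPDL1 and 36.5% under the combination, and 0.810% to 2.49% of T cells did.

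In the whole libraries, where fewer cells of a type and less RNA per cell cannot be told apart, Mmp8 stood at 153 CPM in ctrl against 14.7, 20.8 and 9.10 CPM elsewhere. Mmp9 was at 76.3 CPM in ctrl and 13.4 to 25.9 CPM elsewhere, so ctrl was the highest library here and the lowest within neutrophils, while the treated libraries kept their order. The number of neutrophils differed with it, 3223 in ctrl and 279 to 332 elsewhere.

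Dendritic cells of type 2, a class of 135 to 307 cells, carried Mmp12 at 134 CPM in ctrl, 95.2 under 2DG, 70.6 under aPDL1 and 9.12 under the combination. Only 6 to 34 cells per library held it. Timp1 there was at 36.0, 28.9, 69.2 and 106 CPM. Of the 4 genes with enough counts in both aPDL1 pairs, Mmp12 was lower in both (3.04% of all genes) and Timp1 higher in both (1.87%). Cells with only the minimum of 3 markers made up 5.93%, 11.8%, 20.2% and 21.8% of this class in the same order. The monocyte or macrophage markers summed there to 587, 663, 794 and 842 CPM, and their part in these ratios was not tested. Regulatory T cells carried Timp2 at 61.4, 78.4, 96.0 and 111 CPM, against 7.18 to 9.19 CPM in CD8 T cells. Timp2 in T cells as a whole was at 28.1 to 31.3 CPM.

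Other genes of the system were counted from lists. Of 16 other metalloproteinases, 1 met the count minimum in monocytes and macrophages, Mmp25, a membrane-anchored enzyme of leukocytes. It was at 2.02 CPM in ctrl, 5.71 under 2DG, 8.51 under aPDL1 and 13.6 under the combination, and higher in all 4 pairs. Mmp2, whose precursor Mmp14 activates, was at 0.522 to 1.62 CPM in that class. None of 6 other inhibitors, which include Timp3 and Reck, met the minimum.

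Activators of the precursors and plasminogen genes gave 4 of 7 lower and 0 higher in monocytes and macrophages for 2DG over ctrl (9.32% and 12.6% of all genes), and 0 of 6 either way for the combination over aPDL1 (8.04% lower and 4.44% higher). Their median log2 ratios were -0.75 and -0.28. Matrix substrates gave 6 of 7 lower and 1 higher for 2DG over ctrl, and 2 of 7 lower and 0 higher for the combination over aPDL1, with medians of -1.22 and 0.04. Spp1 (osteopontin) was at 3559, 742, 846 and 514 CPM and Fn1 (fibronectin) at 2989, 1841, 2113 and 1366 CPM, both lower in both 2DG pairs. Adam8, a membrane-bound leukocyte metalloprotease, was at 383, 102, 121 and 80.3 CPM. Spp1 also served to define a macrophage state, so its class level moves with that state's share.

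A list of 17 genes that are known regulators of the family held mostly AP-1 and NF-kB genes, with Cebpb, Etv3, Ets2, Spi1 and Stat3. In monocytes and macrophages, 5 of the 17 were higher (12.6% of all genes) and 2 lower (9.32%) for 2DG over ctrl. For the combination over aPDL1, 4 were higher (4.44%) and 0 lower (8.04%). For aPDL1 over ctrl 7 were higher (14%) and 2 lower (9.74%), and for the combination over 2DG 4 were higher (4.37%) and 0 lower (7.25%). Relb, an NF-kB subunit, was at 29.2, 54.6, 59.4 and 92.8 CPM and higher in all 4 pairs. Binding partners and uptake receptors gave 1 higher and 3 lower of 9 for 2DG over ctrl (median -0.33). ADAM and ADAMTS proteases gave 0 higher and 1 lower of 6 (median -0.03), and cathepsins 1 higher and 3 lower of 12 (median -0.10). Over all genes the shares for this pair were 12.6% higher and 9.32% lower. The lower genes of the binding partners and the cathepsins were thus a larger share than over all genes. All of these lists rest on few genes, as do the activators and the matrix substrates.

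Neutrophil granule genes, a list without the 8 genes, had 9 of 12 higher (16.6% of all genes) and 1 lower (27.4%) in neutrophils for 2DG over ctrl, and 9 of 12 higher (11.9%) and 0 lower (26.8%) for aPDL1 over ctrl. Median log2 ratios were 1.49 and 1.77. The Ngp, Camp and Ltf cluster, which some of these genes lead, held 5.44% of neutrophil UMIs in ctrl, 21.2% under 2DG and 27.8% under aPDL1. Without that cluster the list had 2 of 11 higher (16.8%) and 5 lower (27%) for 2DG over ctrl, and 1 of 10 higher (10.8%) and 5 lower (25.6%) for aPDL1 over ctrl, with medians of -0.47 and -0.51. The direction of the list thus turned, while Mmp9 stayed higher as given above. With all clusters the combination had 0 higher and 5 lower of 11 against aPDL1 (14.3% and 8.1%), and 0 higher and 4 lower against 2DG (11.4% and 6.87%).

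Over the 32 sums of cell class and library that held at least 50 cells, the genes whose log2 levels followed each member most closely were listed, among 13433 genes. Sums of the same library share its depth and free RNA, and no p is given. Mmp8 was followed by Gm38575 (Pearson r 0.958), Gm16556 (0.943) and Fpr2 (0.941), and Mmp9 by Fpr1 (0.958), Slc40a1 (0.955) and Lcn2 (0.954). Mmp12 was followed by Parvb (0.880), Fzd7 (0.871) and Plau (0.867), and Mmp13 by Ndufa4l2 (0.900), 4930545L23Rik (0.897) and Igf1 (0.897). Mmp14 was followed by Dab2 (0.935), Adap2 (0.932) and Mt1 (0.931), and Mmp19 by Plcb1 (0.934), Tgfbi (0.920) and Lrp1 (0.919). The inhibitors parted here. Timp1 was followed by Mmp14 itself (0.907), Ms4a6d (0.906) and Fcgr1 (0.900), and Timp2 by Tbc1d2b (0.857), Ctsd (0.849) and Selenon (0.846), while Timp1 and Timp2 had r 0.109 with each other.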

How the data were processed

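Raw UMI counts per gene and barcode were used as deposited. Cell Ranger 7.0.0 is named per the file headers, and Cell Ranger 3.1.0 and mm10 per the submitters' processing notes. The version behind the counts is unsettled. Kept cells had 500 or more genes and no more than 10% mitochondrial UMIs, 7943 to 9294 per library. The highest Scrublet doublet scores were removed at 0.8% per 1000 barcodes (553 to 740 cells), with scanpy 1.11.5, numpy 2.4.6, scipy 1.17.1 and python 3.11.15. A cell joined the class with the largest share of its markers found, if at least 3 were found. Every unrelated class had to score below 75% of that share. Monocytes and macrophages counted as related to the dendritic classes, T to NK cells and B to plasma cells. The stromal, endothelial and epithelial classes counted as related to each other. Related classes were parted by the highest share alone. Ctrl had 628 cells of mixed markers (7.49%) and the others 72 to 111. At the marker minimum were 3.31% to 9.28% of neutrophils and 7.65% to 10.2% of monocytes and macrophages. 27 Leiden clusters (30 components, 15 neighbours, resolution 1) were made without the 8 genes and the list genes, and served as a check.

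CPM were taken over the summed UMIs of a class, with exact Poisson intervals, and shares have Clopper-Pearson intervals. For thinned shares each cell was drawn down to 1500 UMIs and shallower cells were left out: 162, 7, 18 and 14 neutrophils, 119, 59, 52 and 63 monocytes and macrophages and 11, 18, 35 and 19 T cells. TMM factors came from edgeR 4.0.16 in R 4.3.3. The ratio script was tested on simulated data. The 8 genes, the 14 marker panels and the 9 gene lists were chosen with earlier results of these data known. The marker gate and the rule for resident peritoneal macrophages were each changed once, after levels of the 8 genes by cluster had been seen, so 2 versions of each were looked at. From the lists, at most 3 genes per list that passed the fold rule the same way in both pairs were named, and for like patterns the 3 genes of highest r with at least 200 UMIs. Mmp25, Mmp2, Timp3 and Reck are named as examples of list members. Positions are from GENCODE M21.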

Additional observations from a re-analysis of the deposited data

Results flagged for a closer look

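The effect of aPDL1 had opposite signs with and without 2DG for 2 genes, and this difference was not tested, as each group had 1 library. Mmp8 in neutrophils had a log2 ratio of 0.64 for aPDL1 over ctrl and -1.35 for the combination over 2DG. Without the Ngp, Camp and Ltf cluster the former turned to -1.58. The latter turned to 1.02 when doublets were removed at 2 times the rate. The opposite signs do not hold under either setting. Mmp19 in monocytes and macrophages had -1.11 for aPDL1 over ctrl and 0.86 for the combination over 2DG.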

How the results depend on the processing

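No paired analysis was possible because each group had 1 library, and leaving out a replicate was not possible for the same reason. A description of protein features was not run, since no protein sequences were in the reference used. Of 345 values (30 log2 ratios under up to 12 alternatives), 269 stayed within their counting interval, 66 moved beyond it with the same sign and 10 changed sign. Settings that leave out the Ngp, Camp and Ltf cluster, the neutrophils in the Spp1 and Arg1 cluster or the top cell were chosen after seeing the data. The count of genes that moved the same way in both 2DG pairs in neutrophils went from 0 to 1 (Mmp8) with 2 times the doublet rate removed, without the Ngp, Camp and Ltf cluster, with the mean of per-cell CPM and with states weighted equally. For aPDL1 in neutrophils it went from 0 to 1 (Mmp8) without that cluster. For aPDL1 in monocytes and macrophages it went from 0 to 1 with the mean of per-cell CPM (Timp1) and with states weighted equally (Mmp13). Neutrophil Mmp13 turned to 0.96 for 2DG over ctrl and 0.079 0.079 for aPDL1 over ctrl with Leiden clusters, and to 0.94 and 0.099 without the neutrophils in the Spp1 and Arg1 cluster. Neutrophil Mmp8 for aPDL1 over ctrl turned to -1.58 without the Ngp, Camp and Ltf cluster, -0.060 with the mean of per-cell CPM and -0.092 with states weighted equally, and for the combination over 2DG to 1.02 with 2 times the doublet rate removed. Monocyte or macrophage Mmp9 for aPDL1 over ctrl turned to -0.62 without the top cell and -0.28 with the mean of per-cell CPM. The cause was not tested. Mmp12 in that class ranged from -2.20 to -1.43 for 2DG over ctrl and from -1.19 to -0.79 for the combination over aPDL1, and neutrophil Mmp9 for 2DG over ctrl from 1.43 to 1.82. The class of highest level was the same for each of the 8 genes under every alternative run. TMM scaling shifted all genes by -0.38 in neutrophils for either single treatment over ctrl. Low counts in 279 to 332 treated neutrophils limit Mmp12, Mmp13, Mmp14, Mmp19 and Timp1 there.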

Other observations

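A cluster led by Mgp, Sparc and Col3a1, which was left unnamed, held 12, 12 and 13 cells under 2DG, aPDL1 and the combination and none of the 8389 ctrl cells. Its Timp1 was at 231, 249 and 280 CPM, its Timp2 at 269, 225 and 315 CPM and its Mmp14 at 259, 180 and 165 CPM in that order. A cluster led by the interferon-induced genes Rsad2 and Ifit2 had Timp1 at 380 CPM in ctrl, 691 under 2DG, 1118 under aPDL1 and 984 under the combination, from 81, 110, 191 and 263 cells. A monocyte cluster led by Chil3 and Vcan had Mmp19 at 349, 248, 248 and 330 CPM.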
